A study of Mus musculus with 6 samples.

Results

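Mouse embryonic fibroblasts (MEFs), which are connective tissue cells cultured from embryos, were profiled by RNA-seq, and the data were used to follow 9 genes of the plasminogen activator system, the serpin family and the start of blood clotting. They were *Plat*, *Plau*, *Plaur*, *Serpine2*, *Serpinb2*, *Serpinf1*, *Serpinh1*, *F3* and *Thbd*, chosen by symbol for what their proteins do, and all 9 were found among the 17092 genes counted. The cells came from WT mice and from *Aff3ir-ORF2-/-* mice, which lack an open reading frame of a gene nested within *Aff3*, with 3 libraries of each genotype. The deletion was made in fertilized eggs with Cas9 and guide RNAs and is present in every cell of the animal, so that no promoter or cell type limits it, and the homozygous mice descend from intercrossed heterozygotes. No flow, ligand or other treatment is named for these cells, and MEFs of the study were grown in medium with serum. The study took WT MEFs from C57BL/6 mice in its other experiments and does not repeat the strain for these libraries. Neither the age of the embryos nor whether the 3 libraries of a genotype came from separate cultures is given in the sources used here, so p-values measure only the spread between these libraries, which may be technical.

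Plasminogen is a circulating precursor that is cut into plasmin, the protease that dissolves fibrin and degrades matrix around cells. The cut is made by tissue-type plasminogen activator, encoded by *Plat*, or by urokinase, encoded by *Plau*, which is held at the cell surface by its receptor, encoded by *Plaur*. Serpins are proteins whose exposed loop is cut by a target protease, which is then trapped. *Serpine2* (protease nexin 1) and *Serpinb2* (plasminogen activator inhibitor 2) work in this way, whereas *Serpinf1* (pigment epithelium-derived factor) and *Serpinh1* (the collagen chaperone HSP47) have the serpin fold without inhibiting proteases. *F3* encodes tissue factor, the membrane protein that starts coagulation, and *Thbd* encodes thrombomodulin, which binds thrombin and turns it towards activating protein C. Fibroblasts are a known source of tissue factor, urokinase and the collagen chaperone, while thrombomodulin is best known from endothelium.

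A library held 17435133 to 18252330 estimated counts, and levels are given as CPM, the count of a gene scaled to the effective total of its library. Markers of macrophages moved with the genotype. All 25 tested macrophage markers of 27 listed were called higher in *Aff3ir-ORF2-/-* MEFs, and the summed level of the list was 25.8 to 29.5 CPM in WT libraries against 1501, 2078 and 2567 CPM in *Aff3ir-ORF2-/-* libraries 1, 2 and 3. *C1qa*, *C1qb*, *Aif1* and *Fcgr1* were at 0 in every WT library. Of these, *C1qa*, *C1qb* and *Fcgr1* passed the filter on low counts only through the *Aff3ir-ORF2-/-* libraries, where they were high. For such genes no other call was possible, so the count of calls supports nothing about the list. Over all tested genes 14.2% were called higher. Fibroblast markers were abundant in every library, at 30638 to 30770 CPM in WT and 25693 to 32544 CPM in *Aff3ir-ORF2-/-* MEFs, and of the 7 smooth muscle markers 6 were called higher, with sums of 4371 to 4478 CPM against 7419 to 8103 CPM. Of the endothelial markers *Pecam1* stood at 2 to 5 counts in every library and *Robo4* and *Sox17* at 0 in WT, whereas *Kdr* had 81 to 89 counts in WT and 118 to 229 in *Aff3ir-ORF2-/-* libraries. The part of any of these cell types in the values of the 9 genes was not tested. In bulk RNA, fewer cells of a type and less RNA per cell cannot be told apart.

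Of the 9 genes, *Serpine2* and *Thbd* were called higher and *Serpinb2* and *Plaur* lower in *Aff3ir-ORF2-/-* MEFs. A call needed a change of at least 1.5-fold and a p under 0.05 in the quasi-likelihood test of edgeR, adjusted by Benjamini-Hochberg over all 13075 tested genes. All 9 genes passed the filter on low counts. Among all tested genes 14.2% were called higher and 7.27% lower, 21.4% in all, beside 2 higher and 2 lower of the 9. *Serpinf1* and *Serpinh1* also had an adjusted p under 0.05, both with lower levels but by less than 1.5-fold, which made 6 of 9 against 56.8% of all tested genes. These 6 genes were also those whose WT and *Aff3ir-ORF2-/-* libraries did not overlap, as was found for 66.0% of all tested genes. *Plat*, *Plau* and *F3* passed neither threshold. The median log2 fold change of the 9 was -0.13, beside 0.0056 for all tested genes, of which 50.6% were positive.

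**Figure D1:**
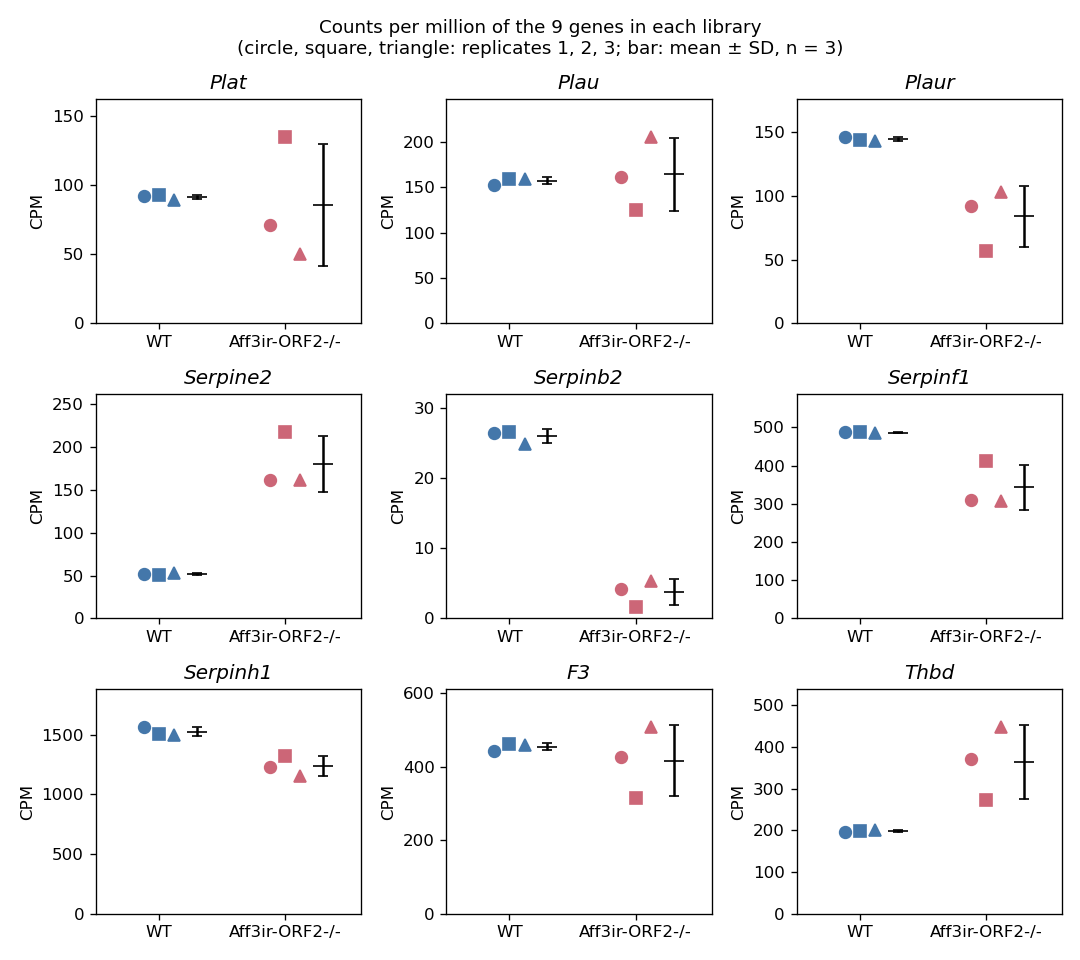
CPM (vertical axes, each from 0) of each of the 9 genes in the 3 WT and the 3 *Aff3ir-ORF2-/-* libraries, with the mean ± SD beside them. The WT points lie close together in every panel, the *Aff3ir-ORF2-/-* points spread widely for *Plat*, *Plau* and *F3*, and the genotypes do not overlap for the other 6 genes.

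Promoter sequences were at hand for 6 of the 9 genes, and those of the serpins with the widest changes, the urokinase receptor and tissue factor are shown because short motifs differ between them. Each is the stretch of 250 bases before the annotated start, from RefSeq on GRCm38.p6, read 5′ to 3′ on the strand of the gene. Capitals mark matches on either strand to TGANTCA, the AP-1 motif, to GCGNGGGCG, the EGR motif, and to TATAAA, the TATA box. *Serpinb2* is read from chr1:107511173-107511422 on the plus strand, the first of a pair of annotated starts, *Serpine2* from chr1:79858666-79858915 on the minus strand, *Plaur* from chr7:24462233-24462482 on the plus strand and *F3* from chr3:121723287-121723536 on the plus strand.
Serpinb2: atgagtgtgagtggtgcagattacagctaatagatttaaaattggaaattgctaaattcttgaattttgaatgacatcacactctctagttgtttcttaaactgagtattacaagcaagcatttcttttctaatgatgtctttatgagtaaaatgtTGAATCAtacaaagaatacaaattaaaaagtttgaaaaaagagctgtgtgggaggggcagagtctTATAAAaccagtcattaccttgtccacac
Serpine2: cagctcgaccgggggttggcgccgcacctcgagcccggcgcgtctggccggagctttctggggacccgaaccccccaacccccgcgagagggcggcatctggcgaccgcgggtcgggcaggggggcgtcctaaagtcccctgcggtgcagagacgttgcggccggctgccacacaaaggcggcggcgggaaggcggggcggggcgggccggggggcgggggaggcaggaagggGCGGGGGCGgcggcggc
Plaur: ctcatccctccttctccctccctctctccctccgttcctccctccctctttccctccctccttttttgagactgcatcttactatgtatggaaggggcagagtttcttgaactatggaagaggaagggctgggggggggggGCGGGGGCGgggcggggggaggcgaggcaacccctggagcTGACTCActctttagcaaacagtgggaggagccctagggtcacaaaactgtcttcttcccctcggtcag
F3: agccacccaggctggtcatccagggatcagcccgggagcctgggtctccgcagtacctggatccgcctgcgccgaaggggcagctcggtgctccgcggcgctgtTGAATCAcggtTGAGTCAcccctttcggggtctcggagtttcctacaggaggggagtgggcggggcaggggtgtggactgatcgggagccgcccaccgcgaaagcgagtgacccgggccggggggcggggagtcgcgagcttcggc

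The *Serpinb2* stretch was the poorest in G and C of those shown, at 32.4%, against 59.6% for *Plaur*, 70.0% for *F3*, 78.8% for *Serpine2* and a median of 52.4% over all promoters. It held an AP-1 match at positions -94 to -88, counted back from the start, and was the only one of the 6 promoters with a TATA box, at -29 to -24, a motif found in 12.4% of 32851 promoters. AP-1 matches stood in 3 of the 6 promoters, beside 6.75% of all, with a pair in *F3* at -146 to -140 and -135 to -129 and another in *Plaur* at -69 to -63. The EGR motif stood in *Plaur* at -109 to -101 and in *Serpine2* at -17 to -9, which is 2 of 6 promoters beside 4.70% of all, and in both it overlapped a match to the GC box GGGCGG. The GC box stood in 4 of 6 promoters (32.7% of all), CCACCC, a KLF motif, in 3 of 6 (28.1%) and an NF-κB motif, GGG and CC around any 5 bases, in 4 of 6 (45.8%). A match describes the letters of the window only, and genes with a match were called lower (*Serpinb2*, *Plaur*), called higher (*Serpine2*) or not called (*F3*).

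The activators themselves were not called. *Plat*, the tissue-type activator, measured 91.7, 92.4 and 89.5 CPM in WT libraries 1, 2 and 3, and 71.1, 135 and 50.4 CPM in *Aff3ir-ORF2-/-* libraries 1, 2 and 3. One *Aff3ir-ORF2-/-* library thus lay above all WT libraries and the other two below them. The log2 fold change was -0.093 (SE 0.36, adjusted p = 0.845), with a 95% interval from -1.01 to 0.82 that holds a 2-fold change downwards. Without *Aff3ir-ORF2-/-* library 2 *Plat* was called lower, with a log2 fold change of -0.59 (adjusted p = 0.0439), and without library 1 or library 3 the value turned positive, at 0.019 and 0.17.

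*Plau*, urokinase, measured 153, 159 and 159.7 CPM in the WT libraries and 162, 125 and 206 CPM in the *Aff3ir-ORF2-/-* libraries. Here library 2 was the lowest and library 3 the highest of all 6. The means were 157 ± 3.74 and 164 ± 40.5 CPM (SD, n = 3), with a log2 fold change of 0.064 (SE 0.18, adjusted p = 0.778) and an interval from -0.37 to 0.50, and the value was -0.13 without *Aff3ir-ORF2-/-* library 3. The ratio of *Plat* to *Plau* counts was 0.581 ± 0.0199 in WT and 0.587 ± 0.436 in *Aff3ir-ORF2-/-* libraries (SD, n = 3). The single *Aff3ir-ORF2-/-* values were 0.439, 1.08 and 0.245, so the similar means came from libraries that lay on both sides of WT.

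*Plaur*, the urokinase receptor, fell. It measured 146, 144 and 143 CPM in the WT libraries and 91.9, 57.1 and 103 CPM in the *Aff3ir-ORF2-/-* libraries, all 3 of them below every WT library. The log2 fold change was -0.78 (SE 0.22, adjusted p = 0.0265). This call lies near both thresholds. Without any 1 of the WT libraries the adjusted p was 0.0526 to 0.0586, and without *Aff3ir-ORF2-/-* library 2 the log2 fold change was -0.57, just under 1.5-fold, with an adjusted p of 3.54e-08. Set against its ligand, *Plau* counts per *Plaur* count were 1.09 ± 0.0386 in WT and 1.98 ± 0.214 in *Aff3ir-ORF2-/-* libraries, with no overlap.

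Both inhibitory serpins changed, in opposite directions. *Serpine2*, an inhibitor of thrombin, urokinase and plasmin on the cell surface, measured 52.1, 51.2 and 53.3 CPM in the WT libraries. It measured 162, 218 and 162 CPM in the *Aff3ir-ORF2-/-* libraries, of which libraries 1 and 3 were alike and library 2 was the highest. This was a 3.46-fold rise, a log2 fold change of 1.79 (SE 0.12, adjusted p = 3.45e-05, 95% interval from 1.49 to 2.09). Every alternative tried kept the call, with log2 fold changes from 1.63 to 1.86.

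*Serpinb2*, an inhibitor of urokinase that is found mostly inside cells, had the widest change of the 9. Its counts were 455, 467 and 433 in WT and 76, 31 and 97 in *Aff3ir-ORF2-/-* libraries 1, 2 and 3, or 26.4, 26.6 and 24.8 CPM against 4.17, 1.66 and 5.29 CPM. The highest *Aff3ir-ORF2-/-* library was thus far below the lowest WT library. The fall was 6.99-fold, a log2 fold change of -2.81 (SE 0.30, adjusted p = 0.000376, 95% interval from -3.53 to -2.08), and the log2 fold change was between -3.16 and -2.46 in all alternatives, with the call kept in each. *Serpinb2* is also expressed by macrophages, whose markers were higher in the *Aff3ir-ORF2-/-* libraries. Their part in the level of *Serpinb2* was not tested, and over these libraries it cannot be told apart from the genotype. Counts of *Serpine2* per *Serpinb2* count went from 2.02 ± 0.117 in WT to 66.8 ± 55.8 in *Aff3ir-ORF2-/-* libraries, with single values of 38.8, 131 and 30.6 (SD, n = 3).

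**Figure D2:**
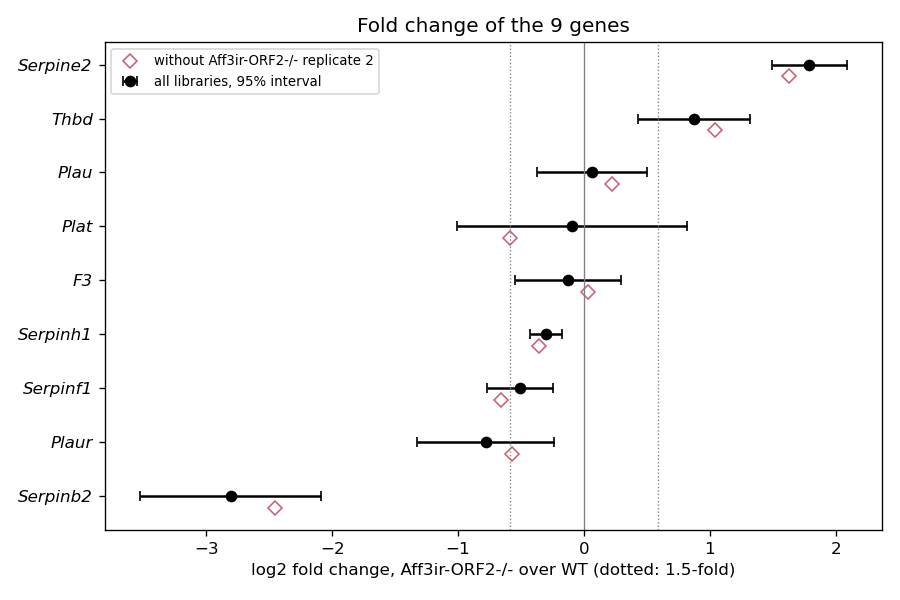
Log2 fold change of *Aff3ir-ORF2-/-* over WT (horizontal axis) for the 9 genes, with 95% intervals from all 6 libraries (black) and the value without *Aff3ir-ORF2-/-* replicate 2 (open diamonds). Dotted lines mark 1.5-fold, and *Serpine2* at 1.79 and *Serpinb2* at -2.81 stand farthest from 0.

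The ratio of each activator to the cell-surface inhibitor was lower in *Aff3ir-ORF2-/-* libraries. *Plau* counts per *Serpine2* count were 3.01 ± 0.0864 in WT and 0.949 ± 0.352 in *Aff3ir-ORF2-/-* libraries, and *Plat* counts per *Serpine2* count were 1.75 ± 0.0641 and 0.456 ± 0.154 (SD, n = 3). Neither ratio overlapped between genotypes. Against *Serpinb2* the direction was the other way, with 6.07 ± 0.336 *Plau* counts per *Serpinb2* count in WT and 51.0 ± 20.9 in *Aff3ir-ORF2-/-* libraries. Ratios of counts carry the transcript lengths with them and are compared between genotypes only.

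The serpins that do not inhibit proteases were both lower by small steps. *Serpinf1*, a secreted protein known to restrain vessel growth, measured 487, 489 and 485 CPM in the WT libraries and 311, 411 and 307 CPM in the *Aff3ir-ORF2-/-* libraries. The genotypes did not overlap, and library 2 lay closest to WT. The log2 fold change was -0.50 (SE 0.11, adjusted p = 0.00682), under 1.5-fold, and it was -0.66 with a call without *Aff3ir-ORF2-/-* library 2.

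*Serpinh1* had the most counts of the 9 genes. Its levels were 1569, 1507 and 1502 CPM in the WT libraries and 1234, 1320.3 and 1154 CPM in the *Aff3ir-ORF2-/-* libraries, again without overlap. With the narrowest interval of the 9, from -0.43 to -0.18, its log2 fold change was -0.30 (SE 0.057, adjusted p = 0.00139). Of 23 genes of collagen chains and collagen folding, all tested, 2 were called higher and 0 lower, with a median log2 fold change of 0.16. An adjusted p under 0.05 was found for 14. The shares of all tested genes were 14.2% called higher, 7.27% called lower and 56.8% with an adjusted p under 0.05. *Plod2* at 0.78 and *Fkbp14* at 0.70, both enzymes of procollagen in the endoplasmic reticulum, were called. The collagen chains *Col1a1* at -0.49 and *Col1a2* at -0.41, the main clients of the chaperone, were lower with adjusted p of 0.0125 and 0.0366 and under 1.5-fold. *Col5a2*, another abundant chain, was at 0.11 (adjusted p = 0.190) with all *Aff3ir-ORF2-/-* libraries above WT, and *Col3a1*, named after its values were seen, had 0.023 (adjusted p = 0.959).

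At the start of coagulation, *Thbd* rose and *F3* did not pass the test. *F3*, tissue factor, measured 443, 461 and 459 CPM in the WT libraries and 425, 314 and 508 CPM in the *Aff3ir-ORF2-/-* libraries, which lay on both sides of WT. Its log2 fold change was -0.13 (SE 0.17, adjusted p = 0.556, 95% interval from -0.55 to 0.29), and 0.035 without *Aff3ir-ORF2-/-* library 2. *Thbd*, thrombomodulin, measured 196, 197 and 201 CPM in the WT libraries and 372, 273 and 448 CPM in the *Aff3ir-ORF2-/-* libraries, each of them above every WT library. The rise was 1.84-fold, with a log2 fold change of 0.88 (SE 0.18, adjusted p = 0.00813, 95% interval from 0.43 to 1.32). Of the 13 endothelial markers 5 could be tested, with 2 called higher and 1 lower, beside 14.2% and 7.27% of all tested genes. All 5 are named here after their values were seen. *Kdr*, a VEGF receptor, measured 4.70, 5.06 and 4.75 CPM in the WT libraries and 10.4, 6.33 and 12.5 CPM in the *Aff3ir-ORF2-/-* libraries, with a log2 fold change of 1.01 (adjusted p = 0.00668). The order of the *Aff3ir-ORF2-/-* libraries was that of *Thbd*, but also that of *Plau*, *F3*, *Plaur* and *Serpinb2*. *Erg*, an endothelial transcription factor, had a log2 fold change of 2.51, from 3 to 7 counts in WT. It passed the low count filter only through the *Aff3ir-ORF2-/-* libraries, where it was high, at 21 to 45 counts. *Cdh5* (VE-cadherin) had -0.90 and needed its WT libraries, where it was higher, to pass. The count of calls thus supports nothing about the list. The other tested markers, *Tek* at -1.28 (adjusted p = 0.0564) and *Egfl7* at -0.39 (adjusted p = 0.0791), were not called. Both had all *Aff3ir-ORF2-/-* libraries below WT, and the median log2 fold change of the 5 was -0.39. The summed level of the endothelial list was 10.9 CPM in each WT library and 12.9 to 18.2 CPM in the *Aff3ir-ORF2-/-* libraries. *Kdr* was the largest single part of that sum in each library. The part of endothelial cells in the level of *Thbd* was not tested.

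Among the *Aff3ir-ORF2-/-* libraries the ratio of *Thbd* to *F3* varied less than either gene. *Thbd* counts per *F3* count were 0.443, 0.428 and 0.438 in the WT libraries and 0.875, 0.868 and 0.882 in the *Aff3ir-ORF2-/-* libraries, a change of 1.00 on the log2 scale. The SD of the ratio among *Aff3ir-ORF2-/-* libraries, 0.00725, was below the 0.0148 that counting error alone gives, although *F3* itself varied by 1.62-fold and *Thbd* by 1.65-fold among them. This pair was picked after its values were seen, so the ratio is a description without a test.

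The *Aff3ir-ORF2-/-* libraries spread more widely than the WT libraries for all 9 genes. The coefficient of variation of the 9 genes ran from 0.449% to 3.78% in WT and from 6.72% to 51.5% in *Aff3ir-ORF2-/-* MEFs. Among the 8252 tested genes at or above the average level of the lowest of the 9, the median was 3.00% and 5.79%. *Aff3ir-ORF2-/-* library 2 was the highest or the lowest of its group for all 9 genes, as it was for 77.3% of all tested genes. Its distance from the mean of libraries 1 and 3 on the log2 scale was 1.17 for *Plat*, 0.43 for *Serpine2*, 0.41 for *Serpinf1* and 0.15 for *Serpinh1*, all upwards. It was -1.50 for *Serpinb2*, -0.77 for *Plaur*, -0.58 for *Thbd*, -0.57 for *F3* and -0.55 for *Plau*, all downwards. A distance of at least 0.5 was found for 6 of the 9 genes and for 3.59% of the 8252 genes. Urokinase, its receptor, its intracellular inhibitor and both coagulation regulators were thus lowest in the *Aff3ir-ORF2-/-* library in which tissue-type activator and *Serpine2* were highest.

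**Figure D3:**
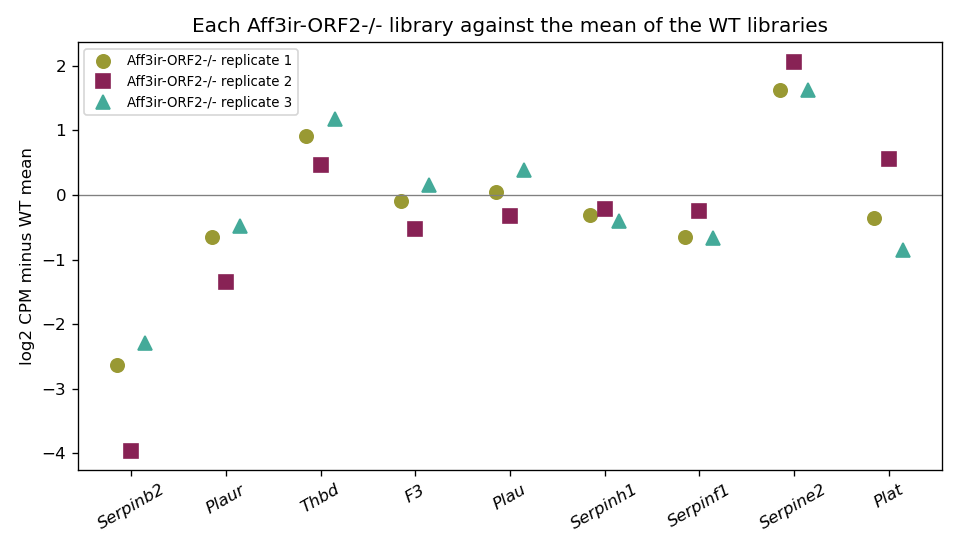
Log2 CPM of each *Aff3ir-ORF2-/-* library minus the mean of the WT libraries (vertical axis) for the 9 genes, ordered by where library 2 (squares) lies against libraries 1 and 3. Library 2 is the lowest for *Serpinb2*, *Plaur*, *Thbd*, *F3* and *Plau* and the highest for *Serpinh1*, *Serpinf1*, *Serpine2* and *Plat*.

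Without library 2 the counts of calls changed as well. *Serpine2* at 1.63 and *Thbd* at 1.04 stayed called higher, *Serpinb2* at -2.46 stayed called lower, and *Plat* and *Serpinf1* took the place of *Plaur* among the genes called lower, which then numbered 3. Over all genes 13.7% were called higher and 7.63% lower in that fit of 13169 genes. The library had macrophage marker sums between those of libraries 1 and 3 and the highest sum of fibroblast markers, 32544 CPM against 27467 and 25693 CPM. The part of its cell make-up in these values was not tested.

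Levels of different genes were compared as CPM per kb of the longest annotated transcript. In WT the order was *Serpinh1* at 671, *Serpinf1* at 266, *F3* at 243, *Plaur* at 71.9, *Plau* at 67.1, *Thbd* at 53.3, *Plat* at 22.6, *Serpine2* at 15.4 and *Serpinb2* at 12.98 CPM per kb, and no neighbours in that order overlapped over the 3 libraries. Tissue factor was thus more abundant than thrombomodulin, and the inhibitors *Serpine2* and *Serpinb2* were at the bottom. In *Aff3ir-ORF2-/-* MEFs *Serpinh1* at 544 stayed first and *Serpinb2* at 1.86 CPM per kb last, both apart from their neighbours. *F3* at 222 and *Serpinf1* at 187 overlapped. *Thbd* at 97.9, *Plau* at 70.1, *Serpine2* at 53.2, *Plaur* at 41.8 and *Plat* at 21.1 CPM per kb formed a chain in which each overlapped the next. *Serpine2* moved from the eighth place to the sixth and *Plaur* from the fourth to the seventh.

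**Figure D4:**
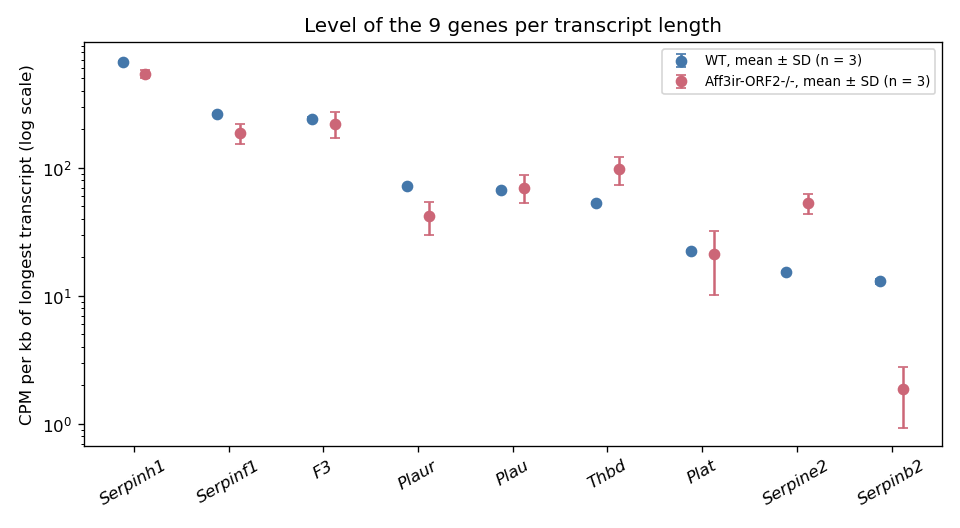
Level of the 9 genes in CPM per kb of the longest transcript (vertical axis, log scale), mean ± SD of 3 WT (blue) and 3 *Aff3ir-ORF2-/-* libraries (red), in the order of the WT level. *Serpinb2* drops from 12.98 to 1.86 and *Serpine2* climbs from 15.4 to 53.2 CPM per kb.

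The other genes of the plasminogen system were read from a list of 21, of which 13 were tested, with a median log2 fold change of 0.16. Calls were 3 higher and 2 lower, beside 14.2% and 7.27% of all tested genes. *S100a10*, part of a cell-surface receptor for plasminogen, fell with a log2 fold change of -0.59, and so did *Lrp2*, an endocytic receptor, at -0.74. *Lrp1*, the receptor that clears activator and inhibitor complexes, stood at a log2 fold change of 0.27 (adjusted p = 0.00787) and *Eno1*, which binds plasminogen at the surface, 0.16 (adjusted p = 0.0208), both under 1.5-fold.

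Those called higher were *Itgam*, an integrin chain and itself a macrophage marker, at 5.86, *Masp1*, a protease of the lectin pathway, at 1.44, and *St14* at 2.30, a membrane protease that had 2 to 8 counts in WT and 16 to 36 in *Aff3ir-ORF2-/-* libraries, passed the filter only through the latter and was named after its values were seen. *Plg*, the gene of plasminogen itself, was not analysed here.

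Of 38 further coagulation genes 19 were tested, with 6 called higher and 2 called lower, beside the 14.2% and 7.27% of all tested genes. Of the 6, *F5* and *Tbxas1* passed the low count filter only through the *Aff3ir-ORF2-/-* libraries, where they were high, so that the count supports nothing about the list. Under a filter of 10 counts in all 6 libraries, 5 genes of the plasminogen and coagulation lists were called higher in place of 9. *F5* (coagulation factor V) had 5 or 6 counts in each WT library against 88, 106 and 106 in *Aff3ir-ORF2-/-* MEFs, a log2 fold change of 4.03. *Tbxas1* (thromboxane synthase) at 2.96, *Vwf* (von Willebrand factor) at 2.24 and *Entpd1*, an enzyme that degrades ADP, at 1.42 were also higher, from levels under 2 CPM in WT. *F13a1*, a chain of the fibrin cross-linking factor, at 1.49, and *Gas6*, a protein related to protein S, at 0.82, named after their values were seen, made up the 6. The macrophage marker sum was also higher in *Aff3ir-ORF2-/-* than in WT libraries, and its part in the levels of the 6 genes was not tested. *Tfpi2*, a protease inhibitor of the matrix, fell with a log2 fold change of -1.21, and *F2rl1*, a receptor cleaved by proteases such as trypsin and the tissue factor complex, fell with -0.66. The abundant *Anxa5*, *F2r* (the thrombin receptor) and *Lman1* were not called, at 0.075, -0.060 and -0.0084.

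Other serpins were mostly rare. Of 37 listed, some of which are also in the lists above, 12 were tested, with a median log2 fold change of 0.55. Of the 12, 4 were called higher and 0 lower, beside 14.2% and 7.27% of all tested genes. In that test of edgeR, 1 of the 12 had a negative log2 fold change with an adjusted p under 0.05, *Serpinb9* at -0.45 (adjusted p = 0.00291), named after its values were seen. *Serpina3n*, an acute phase serpin, had a log2 fold change of 3.09, *Serpinb6b* 1.39, *Serpinb1a* 1.07 and *Serping1*, the C1 inhibitor, 1.02. None of them reached 30 CPM in any library. *Serpinb1a* lay near the threshold (adjusted p = 0.0495), with 31, 78 and 29 counts in *Aff3ir-ORF2-/-* libraries 1, 2 and 3, and the number of other serpins called higher was 3 without library 2 or without any 1 of the WT libraries. The abundant *Serpinb6a* had 0.27 (adjusted p = 0.00145), under 1.5-fold, and *Serpinb9b* had -0.13 (adjusted p = 0.568). These families hold near copies within clusters, so reads may be shared between *Serpinb6a* and *Serpinb6b*, among the *Serpina3*, *Serpinb1* and *Serpinb9* genes, and their values are uncertain.

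**Figure D5:**
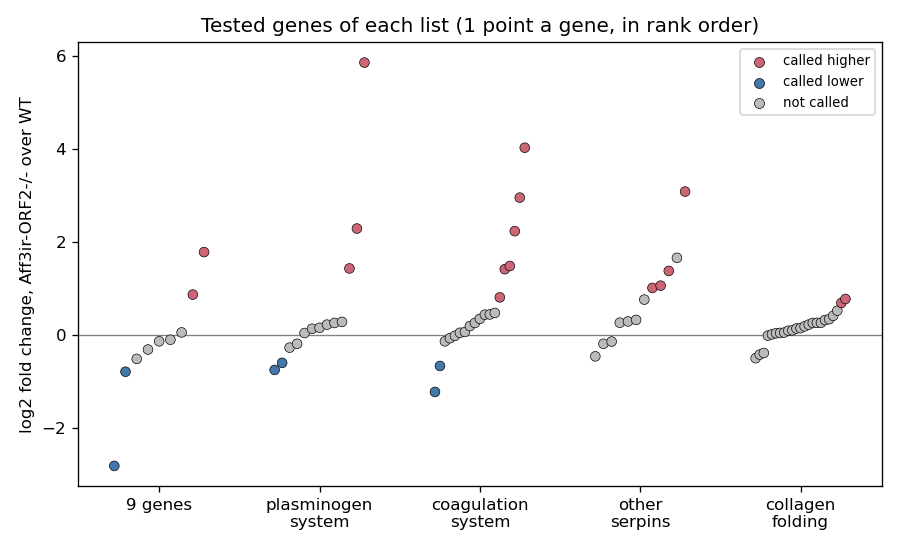
Log2 fold change of *Aff3ir-ORF2-/-* over WT (vertical axis), 1 point per tested gene in rank order, for the 9 genes and 4 related lists, coloured by call. The 9 genes hold 2 calls in each direction, and the other serpins and the collagen folding genes hold none lower. Of all tested genes 14.2% were called higher and 7.27% lower.

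Transcription factors whose motifs were searched, with other factors of stress and hypoxia, made a list of 23 genes, all tested. Of these, 11 were called lower and 0 higher, beside 7.27% and 14.2% of all tested genes, with a median log2 fold change of -0.42. The list was chosen with earlier results of these data known, so the count is a description only. In that test of edgeR, 1 gene of the list, *Hif1a* at 0.51, had a positive log2 fold change with an adjusted p under 0.05 (adjusted p = 0.00168). *Fosb*, a subunit of AP-1, had -3.62, and the EGR factors *Egr2*, *Egr3* and *Egr1* had -3.57, -3.47 and -2.89. *Klf6* had -0.96, and *Fosl2*, the AP-1 subunit with the most counts, was not called at 0.12. Transcript levels say nothing here of binding, and their part in the levels of the 9 genes was not tested.

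The genes most like the widest rise and the widest fall were sought by the root mean square distance between log2 CPM profiles over the 6 libraries, each centred on its WT mean. Nearest to *Serpine2* were *Ypel2* at a distance of 0.069, *Acot11* at 0.089 and *Nol4l* at 0.10. Nearest to *Serpinb2* were *Apol8* at 0.29, *Arc* at 0.36 and *Aldh3a1* at 0.37.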

How the data were processed

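RNA-seq of WT and *Aff3ir-ORF2-/-* MEFs was analysed from the estimated counts that the authors deposited, as a value per gene and library and not normalized. Reads were paired-end, from a DNBSEQ instrument, filtered with SOAPnuke. The submitters' processing notes name the build mm8. The aligner and counting tool are not given in the sources used here. Counts were rounded (10.6% to 11.3% of values were not whole), low genes were removed in edgeR 4.0.16 on R 4.3.3 (filterByExpr, at least 10 counts and 15 in total), and the rest were scaled by TMM and tested by glmQLFit (robust) and glmQLFTest without covariates, with limma 3.58.1 and DESeq2 1.42.0 as alternatives. CPM used TMM-scaled totals. The SE is the log2 fold change over the square root of F. Functions were tested on simulated data. Transcript lengths came from GENCODE and promoters from RefSeq GRCm38.p6 by gene ID, a build other than mm8. The 9 genes, the lists and the motifs were chosen with earlier results of these data known. Of each pathway list, up to 4 called genes in each direction by size (average log2 CPM of at least 0) and the 3 with the most counts are named, except 1 that is not reported here. Alternatives were other scalings, filters, tests and thresholds, a replicate block, leaving out each library, and, chosen after seeing the data, edgeR without robust estimation. Markers of macrophages, fibroblasts, smooth muscle, endothelium, platelets, epithelium and hepatocytes were listed by hand.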

Additional observations from a re-analysis of the deposited data

How the results depend on the processing

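Of the changes of the 9 genes, those of *Serpine2*, *Serpinb2*, *Thbd*, *Serpinf1* and *Serpinh1* kept their direction and an adjusted p under 0.05 in every alternative. Leaving out 1 library in turn gave log2 fold changes from -0.59 to 0.17 for *Plat* (past the threshold without *Aff3ir-ORF2-/-* library 2, positive at 0.019 and 0.17 without libraries 1 and 3), from -0.13 to 0.22 for *Plau* (negative without library 3), from -0.30 to 0.035 for *F3* (positive without library 2) and from -0.96 to -0.57 for *Plaur* (adjusted p over 0.05 without each WT library, under 1.5-fold without *Aff3ir-ORF2-/-* library 2). *Plaur* was -0.80 (adjusted p = 0.0571) without a filter and -0.82 (adjusted p = 0.0565) with the replicate block. The number called lower among the 9 was 1 in both of those fits and 1 to 3 when a library was left out. A 2-fold threshold and a test against 1.5-fold each left 1 of the 9 called higher and 1 lower, 1096 and 1074 of all genes higher, 317 and 410 lower, and 1 gene of the plasminogen and coagulation lists lower. The latter test left 2 other serpins higher. Of those combined lists 9 genes were higher and 4 lower as reported, 5 were higher with at least 10 counts in every library, and 2 to 4 were lower when a library was left out, with 2 without *Aff3ir-ORF2-/-* library 2. No other log2 fold change of the 9 changed sign or its side of the adjusted p threshold, and the causes were not tested. Correlations of same-number deviations were low, at 0.0386, 0.0424 and 0.0145, yet each was the best match of its library. Whether the replicate numbers pair the libraries was thus not settled. Apart from *Plaur*, the replicate block changed no call of the 9.

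With 3 libraries a genotype and a wide spread in *Aff3ir-ORF2-/-* MEFs, changes of *Plat*, *Plau* and *F3* within the intervals given could not be detected. Genes under about 10 counts were not tested. Markers of epithelium (1 of 8 tested, not called), hepatocytes (1 of 8 tested, *Apob*, called higher at 5 to 14 against 24 to 34 counts) and platelets (5 of 10 tested, 1 called higher, *Pf4*) were at most 28.7 CPM in sum, and their part in the results was not tested. *Apob* and *Pf4* passed the low count filter through the *Aff3ir-ORF2-/-* libraries, where they were high, so their calls support nothing about the lists. Of all tested genes 14.2% were called higher.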
